A study of Mus musculus with 8 samples.

Results

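The comparison described here sets the control Tregs sorted as YFP+ against the second control of the study. The first group was 2 libraries of YFP+ Tregs from C57BL/6 mice of genotype WT Control (WT YFP+, numbers 23 and 24). Set against them were 2 libraries of Tregs from 129SvEv mice of genotype WT Control 2, titled SRC_3ff, with no YFP sort in their label (SRC-3ff, numbers 68 and 72). They were chosen by their labels and are 4 of the 8 libraries of the series. The other 4 were Tregs of mice of genotype SRC-3 KO, whose background mixed both strains, sorted as YFP+ or as YFP- (called KO YFP+ and KO YFP-, with numbers 84 and 85 in either sort). All came from spleens of mice without tumors. The labels give no ages, and they name neither the promoter behind YFP nor the deleted part of the gene. Of 55487 genes in the deposited table, 14134 had at least 1 FPKM (fragments scaled by transcript length and by library size) in at least 2 libraries and were tested. Strain and sort both changed between the 2 controls and cannot be told apart.

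Regulatory T cells are CD4 T cells that restrain immune responses and depend on the transcription factor Foxp3. In the spleen they occur as resting cells, which carry lymphoid homing receptors such as CCR7, and as effector cells, which carry tissue homing receptors and suppressive molecules. SRC-3 is a coactivator of steroid receptors and other transcription factors, and both controls are labelled as wild type. In bulk RNA, fewer cells of a type and less RNA per cell cannot be told apart.

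The FPKM sums of the 8 libraries ranged from 384107 to 416393, with 12573 to 13251 genes at 1 FPKM or more. The mean absolute log2 difference per gene was 0.291 between the 2 WT YFP+ libraries and 0.283 between the 2 SRC-3ff libraries. Across the 2 groups it ranged from 0.424 to 0.525, and both larger values belonged to SRC-3ff 72. Of the 776 genes called lower in WT YFP+, 611 were higher in SRC-3ff 72 than in SRC-3ff 68. The same share over all tested genes was not counted, so whether it is particular to these genes is not known. The 4 Y-linked genes looked at were at or near 0 in every library, and Xist measured 1.82 and 1.49 FPKM in WT YFP+, against 2.21 and 2.16 FPKM in SRC-3ff. The heat shock gene Hspa1a, a stress-induced chaperone gene, measured 33.6 and 34.5 FPKM in WT YFP+, compared with 0.388 and 2.26 FPKM in SRC-3ff, and its part in the results was not tested.

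The 2 control groups differed at 1303 of 14134 genes (9.22%, limma on log2(FPKM + 1) with a Benjamini-Hochberg adjusted p under 0.05). WT YFP+ was higher at 527 genes (3.73%) and lower at 776 (5.49%). Quantile normalization moved this split to 705 higher and 648 lower. The count moved with the libraries used, and 728 genes passed without WT YFP+ 23, 530 without WT YFP+ 24 (3.75%, with 1.2% higher) and 400 without SRC-3ff 72 (2.83%, with 0.856% higher). At an unadjusted p under 0.05 the share was 26.2% with all libraries and 19.7% without WT YFP+ 24. With each of the 4 control libraries left out in turn, 339 genes passed every time, 103 of them higher and 236 lower in WT YFP+. The libraries of the 2 groups did not overlap at 8087 genes, or 57.2% of those tested, among them all 1303 called genes. The median log2 difference over all genes was -0.03.

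**Figure D1:**
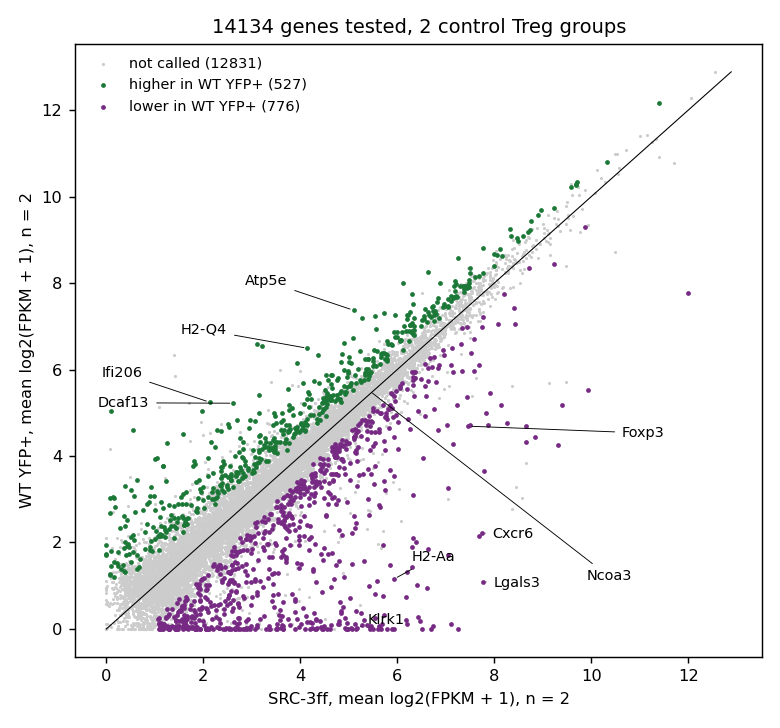
Mean log2(FPKM + 1) of each tested gene in WT YFP+ (vertical axis, n = 2) against SRC-3ff (horizontal axis, n = 2), with 527 genes higher in green, 776 lower in purple and the line of equality. The lower genes reach farther from the line, and many of them lie near 0 in WT YFP+.

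Ncoa3, which encodes SRC-3, did not pass between the controls. Its level was 46.3 and 42.7 FPKM in WT YFP+ and 49.7 and 35.4 FPKM in SRC-3ff, so the libraries of the 2 groups overlapped. The log2 difference was 0.08 ± 0.16 (limma standard error, adjusted p = 0.79), and it was -0.16 without SRC-3ff 72. None of the 7 steroid receptor coactivator genes passed, against 9.22% of all genes called.

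Foxp3 was lower in the YFP+ sorted control. Its level was 31 and 19.9 FPKM in WT YFP+, against 205 and 151 FPKM in SRC-3ff, with no overlap. The log2 difference was -2.78 ± 0.26 (adjusted p = 0.0018). Other genes that define Tregs were closer between the groups. Il2ra, the high-affinity interleukin 2 receptor chain, measured 113 FPKM in both WT YFP+ libraries and 107 and 83.1 FPKM in SRC-3ff. Ctla4, an inhibitory receptor of Tregs, measured 69.0 and 74.8 FPKM in WT YFP+, against 82.8 and 76.0 FPKM in SRC-3ff, and neither gene passed (adjusted p = 0.24 and 0.71). Of 20 tested Treg identity genes, 2 were higher and 3 lower in WT YFP+, against 9.22% of all genes called. Their median log2 difference was 0.00. The higher ones were Nt5e, the ectoenzyme CD73 (50.5 and 45.7 FPKM against 32.7 and 30.9 in SRC-3ff), and Ikzf4, the Eos transcription factor. The other lower ones were the integrin chain gene Itgae (10.7 and 8.82 FPKM against 37.7 and 72.2 in SRC-3ff) and the inhibitory receptor gene Tigit. Without SRC-3ff 72 no member of the list was higher and 2 were lower.

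Most T cell identity genes did not pass, as was so for all genes tested, of which 9.22% were called. Of 18 tested members of the T cell core list, Bcl11b, a T lineage transcription factor, was the 1 that passed, at 192 and 211 FPKM in WT YFP+ and 151 and 130 FPKM in SRC-3ff. Its log2 difference of 0.52 ± 0.10 (adjusted p = 0.025) did not pass without WT YFP+ 23, without WT YFP+ 24 or without SRC-3ff 72 (adjusted p = 0.054, 0.11 and 0.14). Cd4 measured 178 and 212 FPKM in WT YFP+, compared with 168 and 144 FPKM in SRC-3ff (adjusted p = 0.23). Cd4 and Foxp3, which define the labelled cell type, were read in all 4 libraries.

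Genes of effector Tregs were lower in WT YFP+. Over the 35 tested effector Treg genes the median log2 difference was -1.37. Of them, 23 were lower and none higher, against 5.49% and 3.73% of all genes. Between 15 and 22 of them were lower with 1 control library left out, and the smallest count was without SRC-3ff 72. Lgals3 (chromosome 14, 47367751 to 47386160, GRCm38), which encodes the secreted sugar-binding protein galectin 3, had the largest difference of the genes named by size. Its level was 0.415 and 2.21 FPKM in WT YFP+, against 156 and 298 FPKM in SRC-3ff, with a log2 difference of -6.67 ± 0.43 (adjusted p = 0.00070). Cxcr6, a chemokine receptor of tissue-homing T cells, measured 3.59 and 3.72 FPKM in WT YFP+, against 153 and 295 FPKM in SRC-3ff (log2 difference -5.52 ± 0.37, adjusted p = 0.00070). For both genes, the libraries of the 2 groups were far apart and SRC-3ff 72 was the higher of its pair.

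Galectins and calcium-binding proteins followed the same direction. Of 19 tested galectin, annexin and S100 genes, 11 were lower in WT YFP+ and none higher, against 5.49% and 3.73% of all genes. Of these, Lgals1, Lgals3, Anxa1, Anxa2, S100a4, S100a6, S100a10 and S100a11 were also counted among the lower effector Treg genes, so the counts overlap. Anxa1, an anti-inflammatory phospholipid-binding protein, measured 1.17 and 0.797 FPKM in WT YFP+, against 31.8 and 54.2 FPKM in SRC-3ff (log2 difference -4.43 ± 0.27). S100a6 measured 25.6 and 25.3 FPKM in WT YFP+, compared with 169 and 322 FPKM in SRC-3ff, and S100a4 measured 30.1 and 31.8 FPKM against 170 and 301 FPKM. The count was 7 without SRC-3ff 72 and 6 without WT YFP+ 24.

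Some chemokine and cytokine receptor genes were lower in WT YFP+. Of 16 tested chemokine receptors, 6 were lower (Ccr2, Ccr6, Ccr9, Ccr10, Cxcr3 and Cxcr6) and 1 higher (Ccr7). Their median log2 difference was -0.91. Among all genes tested, 5.49% were lower and 3.73% higher. Ccr2, Cxcr3 and Cxcr6 were also counted in the effector Treg list. Ccr2, the receptor for monocyte chemoattractant chemokines, measured 1.42 and 2.30 FPKM in WT YFP+, against 19.3 and 53.8 FPKM in SRC-3ff. Ccr6, the CCL20 receptor, measured 13 and 16.3 FPKM in WT YFP+, compared with 71.0 and 118 FPKM in SRC-3ff. Cxcr3, a receptor for interferon-induced chemokines, measured 31.4 and 32.6 FPKM in WT YFP+, against 81.4 and 87.6 FPKM in SRC-3ff. In all 3 the groups did not overlap, as at every called gene and at 57.2% of all genes tested. Of 26 cytokine receptor genes, 6 were lower, among them Il1r1 (0.00231 and 0.0131 FPKM in WT YFP+ against 2.73 and 5.69 in SRC-3ff) and Il18rap, and 1 was higher, Il6st, the shared signal chain of the interleukin 6 family. The other 19 did not pass, and the median log2 difference of the cytokine receptors was -0.07, against -0.03 over all genes.

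Transcription factors that direct helper T cell lineages were lower at 8 of 26 tested genes, against 5.49% of all genes. Of the list, 2 were higher, Id3 and Lef1, against 3.73% of all genes. Of the lower ones, Tbx21, Gata3, Rora, Prdm1, Maf and Id2 were also counted in the effector Treg list. Id2, an inhibitor of E proteins, measured 38.2 and 18.0 FPKM in WT YFP+, compared with 247 and 377 FPKM in SRC-3ff (log2 difference -3.49 ± 0.39, adjusted p = 0.0036). Rora measured 9.99 and 12.2 FPKM in WT YFP+, against 32.1 and 45 FPKM in SRC-3ff. Tbx21, the Th1 factor T-bet, measured 4.34 and 2.59 FPKM against 15 and 20.5 FPKM. Gata3, the Th2 factor, was also among those lower. Between 4 and 7 of the list were lower with 1 control library left out.

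**Figure D2:**
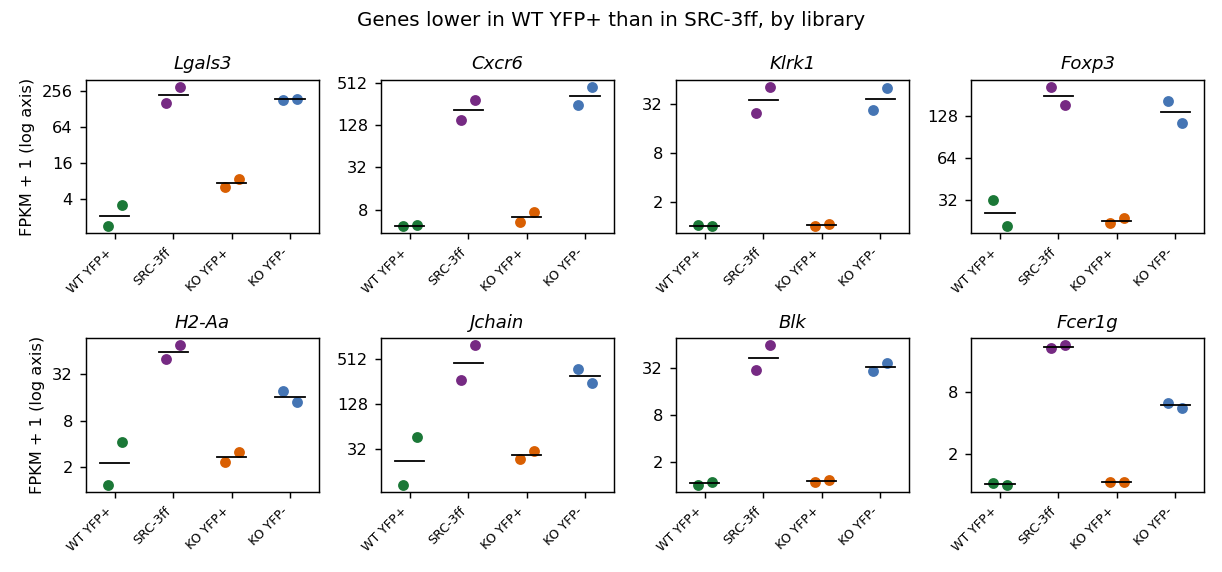
FPKM + 1 (log axis) in each library for 8 genes lower in WT YFP+, compared with SRC-3ff, with a line at each group's mean of log2 values (n = 2). KO YFP+ lies near WT YFP+ and KO YFP- nearer to SRC-3ff in each panel, though H2-Aa and Fcer1g in KO YFP- stay below SRC-3ff.

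Genes of resting lymphocytes were higher in WT YFP+ at 6 of 20 tested members and lower at 1. The shares over all genes were 3.73% and 5.49%. Foxp1, a transcription factor that keeps T cells quiescent, measured 78.2 and 81.6 FPKM in WT YFP+, against 16.8 and 23.0 FPKM in SRC-3ff (log2 difference 1.97 ± 0.15, adjusted p = 0.00093). Ccr7, a chemokine receptor that guides cells into lymph nodes, measured 410 and 490 FPKM in WT YFP+, compared with 244 and 191 FPKM in SRC-3ff. The exception in direction was Il7r, the interleukin 7 receptor, at 15.3 and 21.9 FPKM in WT YFP+ and 111 and 176 FPKM in SRC-3ff. The list had 9 higher members without SRC-3ff 68, and 3 without SRC-3ff 72, without WT YFP+ 23 or without WT YFP+ 24.

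Markers of lymphocytes other than CD4 T cells were low in WT YFP+ and higher in SRC-3ff. Of 7 tested CD8 and gamma delta T cell markers, 6 were lower in WT YFP+, against 5.49% of all genes. Members near 0 in WT YFP+ entered the test through other libraries and could only be called lower. The list summed to 19.5 and 23.9 FPKM in WT YFP+ and 143 and 278 FPKM in SRC-3ff. Trdc, the constant segment of the delta receptor chain, measured 2.03 and 3.90 FPKM in WT YFP+, compared with 33.5 and 78.3 FPKM in SRC-3ff. Sox13, a gamma delta T cell transcription factor, was listed at 0 and 0.0171 FPKM in WT YFP+ and measured 11.4 and 27.6 FPKM in SRC-3ff. Blk, a Src family kinase of B cells and some gamma delta T cells, was listed at 0 and 0.109 FPKM in WT YFP+ and measured 29.8 and 62.1 FPKM in SRC-3ff. Cd163l1, a scavenger receptor known from gamma delta T cells, was listed at 0.0197 and 0 FPKM in WT YFP+ and measured 16 and 52.9 FPKM in SRC-3ff. Zbtb16, the transcription factor of innate-like T cells, was at 0.0309 and 0 FPKM against 5.11 and 8.35 FPKM. The CD8 member Cd8b1 went the other way, at 8.67 and 12.2 FPKM in WT YFP+ and 4.20 and 4.12 FPKM in SRC-3ff, while Cd8a was under 0.5 FPKM in all 4 libraries. In SRC-3ff 72, all 6 lower members were above their SRC-3ff 68 level, and 4 of the 6 passed without that library.

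NK cell markers followed the same order. Of 13 tested members 9 were lower in WT YFP+, against 5.49% of all genes. As in the gamma delta list, members near 0 in WT YFP+ could only be called lower. The list summed to 43.9 and 36.9 FPKM in WT YFP+ and 170 and 244 FPKM in SRC-3ff. Klrk1, the activating receptor NKG2D, measured 0.0359 and 0.00794 FPKM in WT YFP+, against 24.0 and 51.1 FPKM in SRC-3ff. Fcer1g, an immunoreceptor signal chain, was at 0.0506 and 0 FPKM in WT YFP+ and at 20 and 21.3 FPKM in SRC-3ff, the tightest pair among these genes. Ncr1, a defining NK receptor, was listed at 0 in both WT YFP+ libraries and measured 2.19 and 4.48 FPKM in SRC-3ff. Without SRC-3ff 72, 5 members passed. The part of these cells in the effector gene difference was not tested.

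Plasma cell markers and immunoglobulin segments were lower in WT YFP+ as well. Of 12 tested plasma cell markers 6 were lower, against 5.49% of all genes. The list summed to 188 and 234 FPKM in WT YFP+ and 520 and 1140 FPKM in SRC-3ff. Jchain, the joining chain of secreted IgM and IgA, measured 9.42 and 44.6 FPKM in WT YFP+, compared with 266 and 790 FPKM in SRC-3ff (log2 difference -4.40 ± 0.74, adjusted p = 0.015), and it did not pass without SRC-3ff 72 (adjusted p = 0.087). Sdc1, the plasma cell surface proteoglycan CD138, measured 0.0257 and 0.0873 FPKM in WT YFP+, against 15.9 and 29.0 FPKM in SRC-3ff, and was the 1 list member that passed with each control library left out. The share of summed FPKM held by immunoglobulin segments was 0.191% and 0.637% in the WT YFP+ libraries, against 2.55% and 7.29% in SRC-3ff. Segments near 0 in WT YFP+ entered the test through other libraries, so they could only be called lower. Of 211 tested segments, 88 were lower and none higher, and 34 of the 88 passed with each control library left out. Without SRC-3ff 72, 1 plasma cell marker passed.

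Markers of B cells, myeloid cells, dendritic cells, red cells and platelets were mostly low in every control library. Of 16 B cell markers 8 reached the level for testing, and Cd79b and Blk were lower in WT YFP+. Pax5, the B lineage factor, was under 0.5 FPKM in all 4 libraries. No myeloid marker passed among 6 tested, and the list of 15 summed to 10.8 and 13.5 FPKM in WT YFP+ and 14.9 and 24.9 FPKM in SRC-3ff. Itgax, Flt3 and Clec9a were under 0.5 FPKM in all 4 libraries. Of 5 tested dendritic cell markers 3 were lower (Batf3, Zbtb46 and Ccr9), against 5.49% of all genes. The count was 1 without SRC-3ff 72, without WT YFP+ 23 or without WT YFP+ 24, and Batf3 passed each time. Batf3 measured 0.0476 and 0 FPKM in WT YFP+, compared with 3.23 and 3.73 FPKM in SRC-3ff. Among 6 tested red cell and platelet markers, 1 passed, Gata1, at 20 and 18.0 FPKM in WT YFP+ and 11.7 and 9.40 FPKM in SRC-3ff, and it did not pass with any 1 of those 3 libraries left out.

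Genes of MHC class II, which present peptides to CD4 T cells on antigen-presenting cells, were lower in WT YFP+ at 6 of 9 tested members. The share lower over all genes was 5.49%. The list summed to 85.1 and 108 FPKM in WT YFP+ and 422 and 640 FPKM in SRC-3ff. H2-Aa, the alpha chain of I-A, measured 0.169 and 3.24 FPKM in WT YFP+, against 48.6 and 74.3 FPKM in SRC-3ff (log2 difference -4.78 ± 0.56, adjusted p = 0.0043). H2-Ab1, its beta chain, measured 1.58 and 5.30 FPKM in WT YFP+, compared with 63.9 and 106 FPKM in SRC-3ff. H2-Eb1, the I-E beta chain, measured 0.142 and 0.783 FPKM in WT YFP+, against 23.1 and 34.4 FPKM in SRC-3ff. The chains moved together, and Ciita, the class II transactivator, was under 0.5 FPKM in all 4 libraries. With each control library left out in turn, 5 of the 6 passed every time.

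The promoters of 2 of these chains are shown because they share a known class II control element, the Y box. The 250 bases before the RefSeq start site (GRCm38.p6) lie at chr17:34287824-34288073 (minus strand) for H2-Aa and chr17:34305617-34305866 (plus strand) for H2-Eb1. Capitals mark CTGATTGG, searched on both strands, which ended 44 bases before the start of H2-Aa and 55 bases before the start of H2-Eb1. These letters stood in 3.83% of 32851 promoter windows of that length.
H2-Aa: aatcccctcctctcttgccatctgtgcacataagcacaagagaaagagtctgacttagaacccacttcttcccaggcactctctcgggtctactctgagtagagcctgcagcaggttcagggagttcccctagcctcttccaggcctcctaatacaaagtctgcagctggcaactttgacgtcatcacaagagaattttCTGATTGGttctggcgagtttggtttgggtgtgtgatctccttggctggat
H2-Eb1: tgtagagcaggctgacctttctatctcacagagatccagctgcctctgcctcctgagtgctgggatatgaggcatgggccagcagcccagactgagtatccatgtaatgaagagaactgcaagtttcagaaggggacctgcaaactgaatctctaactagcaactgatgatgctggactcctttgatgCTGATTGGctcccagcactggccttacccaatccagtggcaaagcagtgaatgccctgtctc

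The sort difference within the knockout mice, KO YFP+ against KO YFP-, shares no library with the control comparison, and its values are set beside it. Both came from the same fit with a shared estimate of the spread, so their calls are not independent. In KO YFP+, Ncoa3 itself was low (10.9 and 10.2 FPKM against 32.1 and 32.2 in KO YFP-), so that comparison also holds the gene's loss. It gave 693 calls (4.9%), 204 higher (1.44%) and 489 lower (3.46%) in KO YFP+. Of the 776 genes lower in WT YFP+, 708 (91.2%) had the same sign in the knockout sort, 331 passed there in the same direction and 3 in the opposite one. Of the 527 higher genes, 436 (82.7%) had the same sign, 92 passed in the same direction and 2 in the opposite one. Over all tested genes the signs matched at 65%. The 423 shared calls were 32.5% of the calls between controls and 61% of the calls in the knockout sort.

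Members of the effector, gamma delta and NK lists were lower in the YFP+ cells of both comparisons, by sizes that varied from gene to gene. In each comparison 23 effector Treg genes were lower in the YFP+ cells, with a median log2 difference of -1.37. Klrk1 measured 0.0239 and 0.0835 FPKM in KO YFP+ and 25.7 and 49.3 FPKM in KO YFP- (log2 difference -5.12 against -5.14 between the controls). Foxp3 measured 21 and 22.9 FPKM in KO YFP+ and 161 and 113 FPKM in KO YFP-. Lgals3 measured 5.32 and 7.73 FPKM in KO YFP+ and 182 and 186 FPKM in KO YFP- (log2 difference -4.64 against -6.67 between the controls, with adjusted p = 0.32 for the difference of the 2). In these 3 genes each YFP+ group was low and each group without a YFP+ sort was high. Trdc, the delta chain segment, had log2 differences of -3.63 in the knockout sort and -3.76 between the controls. Tbx21 had -3.33 in the knockout sort and -2.08 between the controls (adjusted p = 0.41 for the difference of the 2). For Fcer1g the sizes were -2.48 in the knockout sort and -4.40 between the controls, and that difference passed (adjusted p = 0.026).

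**Figure D3:**
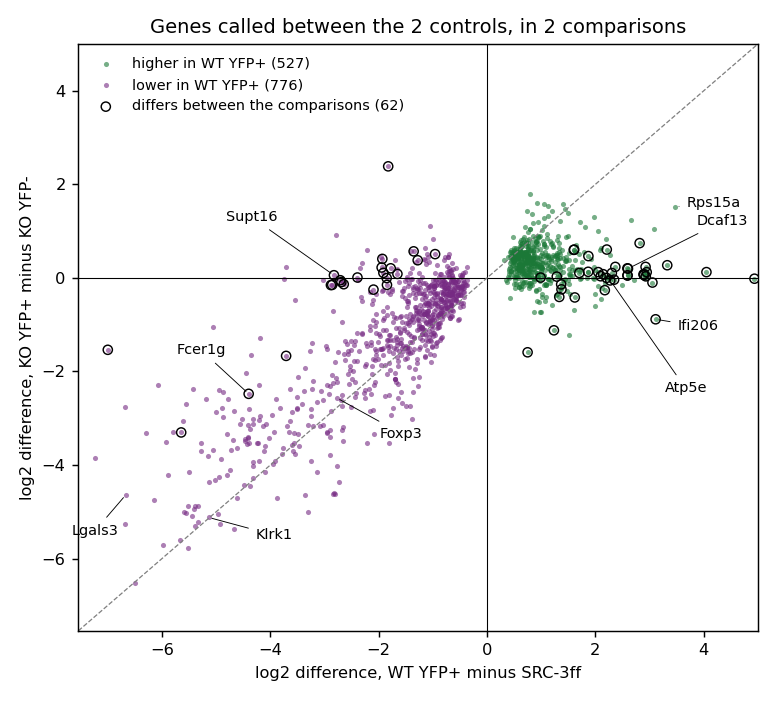
Log2 difference of WT YFP+ minus SRC-3ff (horizontal axis) against KO YFP+ minus KO YFP- (vertical axis) for the 1303 genes called between the controls, green if higher and purple if lower in WT YFP+. Open circles mark 62 genes whose 2 differences differ from each other, most of them lying near 0 on the vertical axis, and the dashed line marks equal differences.

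The difference between the 2 comparisons, tested in the same fit, passed at 68 genes (0.481%), with 0.311% of genes positive and 0.17% negative, and 62 of these were among the calls between the controls. Of the 62, 45 had both knockout groups nearer to SRC-3ff than to WT YFP+, and 12 had both nearer to WT YFP+. Among all genes tested, 24.7% had both knockout groups nearer to SRC-3ff and 37.3% nearer to WT YFP+. The shares were 24.5% and 30% of the genes called higher, and 12.2% and 18.8% of those called lower. The 62 were picked by these same differences, which favours genes with both knockout groups near the same control. These shares are therefore not a like background for the 62. In the remaining 5, Fcer1g, Ighv1-22, Gm23394, Cuedc1 and Akap12, the knockout groups were split between the controls, and all but Fcer1g were named here after their values were seen. Leaving out KO YFP- 85 reduced the count of 68 to 5, leaving out KO YFP+ 84 to 8, leaving out SRC-3ff 68 to 16 and leaving out WT YFP+ 24 to 17.

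Ifi206, Atp5e and Dcaf13 were among the genes that set WT YFP+ apart. Ifi206 (chromosome 1, 173468485 to 173491041, GRCm38), a DNA-sensing family member induced by interferon, measured 35.1 and 38.8 FPKM in WT YFP+, compared with 2.72 and 4.17 FPKM in SRC-3ff. The log2 difference was 3.11 ± 0.23 (adjusted p = 0.00099), and the 4 knockout libraries measured 1.93 to 5.97 FPKM. Atp5e (chromosome 2, 174461072 to 174464105), the epsilon subunit of mitochondrial ATP synthase, measured 167 and 162 FPKM in WT YFP+, against 32.0 and 34.5 FPKM in SRC-3ff (log2 difference 2.27 ± 0.08, adjusted p = 0.00017). The knockout groups gave 41.4 and 41 FPKM in KO YFP+ and 43.0 and 42.7 FPKM in KO YFP-. Dcaf13, a factor of ribosome biogenesis, measured 34.7 and 38 FPKM in WT YFP+, compared with 5.13 and 5.17 FPKM in SRC-3ff, with 4.47 to 5.61 FPKM in the knockout libraries. In each of the 3 genes the 2 WT YFP+ libraries were alone above the other 6.

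Further genes were high in WT YFP+ and lower in the other 6 libraries. Acss2, a cytosolic acetyl-CoA synthetase, measured 23.5 and 27.7 FPKM in WT YFP+, against 4.30 and 5.19 FPKM in SRC-3ff (log2 difference 2.21 ± 0.14). Colq, a collagen-like tail subunit of acetylcholinesterase, measured 3.68 and 6.91 FPKM in WT YFP+, compared with 0.308 and 0.276 FPKM in SRC-3ff. Tbc1d4, a Rab GTPase-activating protein of glucose transporter traffic, measured 22 and 23.4 FPKM in WT YFP+, against 5.32 and 3.21 FPKM in SRC-3ff, with the knockout libraries between, at 6.51 to 10.3 FPKM. Smarcd1, a subunit of the BAF chromatin remodeller chosen after its values were seen, measured 7.47 and 7.43 FPKM in WT YFP+, compared with 0.919 and 1.04 FPKM in SRC-3ff. A further pair of genes was low in WT YFP+ alone, and both were chosen after their values were seen. Supt16, which encodes part of the histone chaperone FACT, measured 6.44 and 5.76 FPKM in WT YFP+, against 51.0 and 47.6 FPKM in SRC-3ff, with 39.5 to 46.3 FPKM in the knockout libraries, and its transcript overlaps that of Rpgrip1. Commd6, a COMM domain protein, measured 9.23 and 12.3 FPKM in WT YFP+, compared with 60.0 and 60.5 FPKM in SRC-3ff, with 51.4 to 59.0 FPKM in the knockout libraries.

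**Figure D4:**
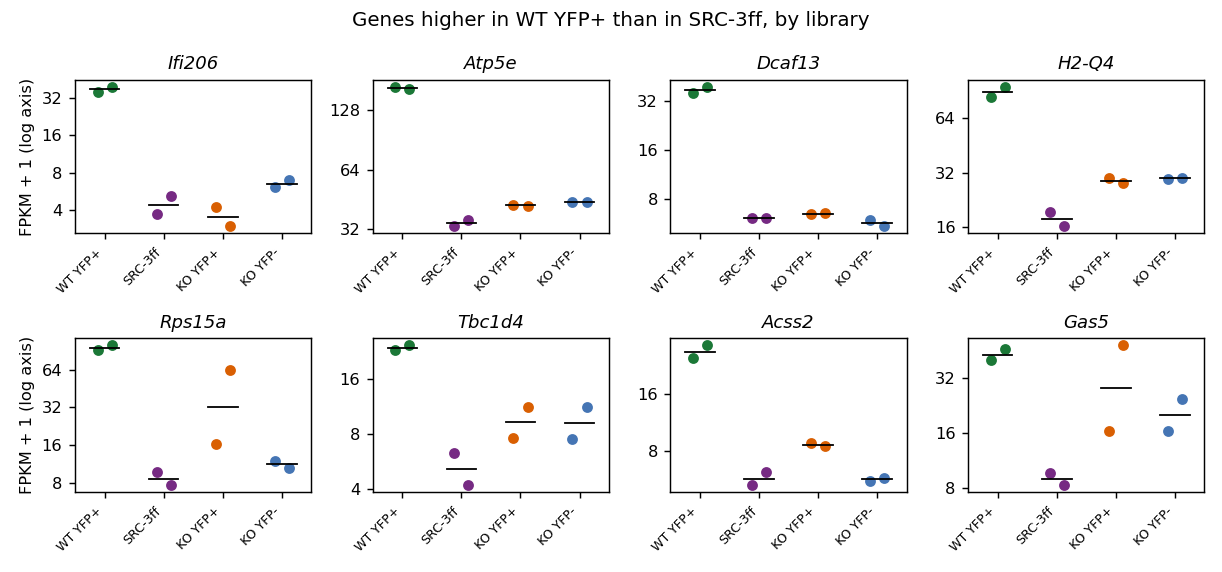
FPKM + 1 (log axis) in each library for 8 genes higher in WT YFP+, compared with SRC-3ff, with a line at each group's mean of log2 values (n = 2). Ifi206, Atp5e, Dcaf13 and H2-Q4 are high in WT YFP+ alone, while Rps15a and Gas5 differ widely between the 2 KO YFP+ libraries.

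SRC-3ff in turn stood apart at a few genes that were near 0 elsewhere. The following were chosen after their values were seen. Upp1, a uridine phosphorylase, was listed at 0 in both WT YFP+ libraries and measured 6.66 and 5.87 FPKM in SRC-3ff, with at most 0.244 FPKM in the knockout libraries. Cntn1, a neural cell adhesion molecule, was listed at 0 in both WT YFP+ libraries and measured 5.20 and 5.89 FPKM in SRC-3ff. Cx3cl1, the ligand of the fractalkine receptor, measured 0.0158 and 0 FPKM in WT YFP+, against 5.10 and 5.92 FPKM in SRC-3ff. Khdrbs3, an RNA-binding splicing regulator, measured 0.00119 and 0 FPKM in WT YFP+, compared with 2.82 and 2.42 FPKM in SRC-3ff, and at most 0.00492 FPKM in the knockout libraries. These genes were read in both SRC-3ff libraries at like levels. Hivep3, a zinc finger transcription factor, was low in SRC-3ff alone. Its level was 6.07 and 8.98 FPKM in WT YFP+, 0.686 and 1.05 FPKM in SRC-3ff and 6.46 to 9.60 FPKM in the knockout libraries. Ncmap, a myelin-associated protein, measured 5.88 and 9.22 FPKM in WT YFP+, 0.549 and 0.434 FPKM in SRC-3ff and 5.26 to 12 FPKM in the knockout libraries. Its call between the controls was lost without SRC-3ff 72 (adjusted p = 0.061) or WT YFP+ 24 (adjusted p = 0.055), and its difference of the 2 comparisons did not pass (adjusted p = 0.11).

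The Ifi200 family is a cluster of interferon-induced DNA sensors on chromosome 1. It was higher in WT YFP+ at 4 of 10 tested members, against 3.73% of all genes, and lower at none. Its sum over 13 genes was 191 and 188 FPKM in WT YFP+ and 94.7 and 85.0 FPKM in SRC-3ff. Besides Ifi206, the higher members were Ifi208 (25.5 and 29.6 FPKM against 5.99 and 4.96 in SRC-3ff), Ifi209 (40 and 37.6 FPKM against 16.4 and 16.8) and Ifi213 (3.33 and 3.71 FPKM against 0.487 and 0.453). All 4 calls held with each control library left out. Mndal (41.8 and 35.7 FPKM in WT YFP+, 31.5 and 26.9 FPKM in SRC-3ff) and Ifi211 (1.70 and 1.92 FPKM in WT YFP+, 2.50 and 2.44 FPKM in SRC-3ff) did not pass, with adjusted p = 0.092 and 0.26. For Ifi208 the knockout groups gave 10.2 and 8.18 FPKM in KO YFP+ and 7.38 and 9.98 FPKM in KO YFP-, nearer to SRC-3ff than to WT YFP+.

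The promoters of 4 called members and of Ifi211 are shown so that their motif and their likeness can be compared. The windows are the 250 bases before the RefSeq start site (GRCm38.p6) at chr1:173491319-173491568 (minus strand) for Ifi206, chr1:173673415-173673664 (plus strand) for Ifi208, chr1:173599273-173599522 (minus strand) for Ifi213, chr1:173630609-173630858 (plus strand) for Ifi209 and chr1:173913047-173913296 (minus strand) for Ifi211. Capitals mark the core of the interferon-stimulated response element, searched as GAAA, any 2 bases and GAAA again, or its complement on the other strand, TTTC, any 2 bases and TTTC.
Ifi206: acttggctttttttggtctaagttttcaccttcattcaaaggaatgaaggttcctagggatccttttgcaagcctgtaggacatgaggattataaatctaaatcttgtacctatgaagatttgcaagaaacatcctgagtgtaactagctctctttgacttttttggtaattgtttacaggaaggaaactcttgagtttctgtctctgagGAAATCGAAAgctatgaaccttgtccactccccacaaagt
Ifi208: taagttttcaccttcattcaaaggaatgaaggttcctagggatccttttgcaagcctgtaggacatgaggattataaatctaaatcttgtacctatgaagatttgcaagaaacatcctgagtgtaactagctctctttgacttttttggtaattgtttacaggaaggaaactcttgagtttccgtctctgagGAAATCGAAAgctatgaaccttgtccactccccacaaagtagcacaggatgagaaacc
Ifi213: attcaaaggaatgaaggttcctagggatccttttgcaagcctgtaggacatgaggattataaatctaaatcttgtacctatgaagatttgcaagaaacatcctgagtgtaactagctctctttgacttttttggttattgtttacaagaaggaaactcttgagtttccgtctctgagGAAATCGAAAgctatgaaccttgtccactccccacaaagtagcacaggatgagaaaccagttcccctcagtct
Ifi209: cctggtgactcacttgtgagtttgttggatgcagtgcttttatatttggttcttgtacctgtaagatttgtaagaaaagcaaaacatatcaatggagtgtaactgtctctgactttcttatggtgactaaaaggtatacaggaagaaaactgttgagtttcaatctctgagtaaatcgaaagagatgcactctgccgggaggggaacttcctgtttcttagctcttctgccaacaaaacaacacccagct
Ifi211: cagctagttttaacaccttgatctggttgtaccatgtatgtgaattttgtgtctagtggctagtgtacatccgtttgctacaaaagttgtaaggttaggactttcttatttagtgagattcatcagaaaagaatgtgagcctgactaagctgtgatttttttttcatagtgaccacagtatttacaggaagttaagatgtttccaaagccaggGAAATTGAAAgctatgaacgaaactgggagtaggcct

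The motif was present in 2.98% of 32851 windows and in 8 of the 10 family genes with a window, out of 13 looked for. It was present in Ifi206, Ifi208 and Ifi213, which were called, and in Ifi211 and Mndal, which were not. Ifi209 was called and its window did not hold these letters. Ifi206 and Ifi208 were identical at 231 of 232 aligned bases (99.6%), and Ifi208 and Ifi213 at 233 of 235 (99.1%). The window of Ifi209 was 70.9% identical to that of Ifi206 over 199 aligned positions, and that of Ifi211 60% over 200. The transcripts are alike too: Ifi208 and Ifi213 aligned over 2749 bases at 96.4% identity, so reads may be split between them.

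Of 25 tested members of the MHC class I and class Ib list, 10 were higher in WT YFP+ and none lower. The share higher over all genes was 3.73%. The list also holds the immunoproteasome genes Psmb8 and Psmb9, and both were among the 10. H2-Q4 measured 83.6 and 94.9 FPKM in WT YFP+, against 18.4 and 15.2 FPKM in SRC-3ff (log2 difference 2.35 ± 0.12, adjusted p = 0.00051). H2-Q2 measured 21.4 and 25.1 FPKM in WT YFP+, compared with 3.95 and 3.84 FPKM in SRC-3ff, H2-Q1 measured 72.7 and 82.7 FPKM against 31.7 and 30.7 FPKM, and H2-T3 measured 5.73 and 5.68 FPKM against 0.656 and 0.699 FPKM. These are class Ib genes of the Q and T regions, with narrower roles than the classical antigen-presenting chains. Of the classical chains, H2-D1 was higher (4238 and 4906 FPKM in WT YFP+, 2723 and 2663 FPKM in SRC-3ff) and H2-K1 did not pass (2420 and 2512 FPKM in WT YFP+, 2550 and 2333 FPKM in SRC-3ff, adjusted p = 0.95). Neither did H2-Q7 (510 and 453 FPKM against 610 and 532 FPKM, adjusted p = 0.24). The calls of H2-D1, Psmb8 and Psmb9 did not hold with each control library left out. The list had 5 higher members without SRC-3ff 72, and H2 genes share sequence, so reads of related members may be split between them.

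Type I interferon response genes were higher in WT YFP+ at 6 of 30 tested members and lower at none. Their median log2 difference was 0.71. The share higher over all genes was 3.73%. The higher members were Isg15, Usp18, Irf7, Stat2, Xaf1 and Zbp1. Xaf1 measured 12.8 and 12.1 FPKM in WT YFP+, against 5.47 and 3.11 FPKM in SRC-3ff (log2 difference 1.38 ± 0.22, adjusted p = 0.013). Isg15, a ubiquitin-like modifier, measured 31.4 and 29.9 FPKM in WT YFP+, compared with 16.7 and 13.4 FPKM in SRC-3ff. No member of this list was called with each control library left out, and 1 was higher without SRC-3ff 72. The knockout libraries lay at or above WT YFP+ for Isg15, at 30.3 to 51.3 FPKM. Guanylate binding proteins and IRG GTPases, which are induced by interferon gamma, were higher at 5 of 19, among them Igtp (241 and 207 FPKM in WT YFP+, 158 and 132 FPKM in SRC-3ff). None of these was higher without SRC-3ff 72 or without WT YFP+ 23.

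Genes with near-identical copies made up part of the largest differences. Rps15a, a ribosomal protein gene, measured 91.0 and 99.3 FPKM in WT YFP+, against 8.73 and 6.65 FPKM in SRC-3ff (log2 difference 3.48 ± 0.55, adjusted p = 0.012). It has 6 annotated copies whose transcripts are at least 95% identical, and these summed to 245 and 268 FPKM in WT YFP+ and 207 and 153 FPKM in SRC-3ff. Gene and copies together gave 336 and 367 FPKM in WT YFP+ and 216 and 160 FPKM in SRC-3ff, a log2 difference of 0.92. Rpl34 measured 122 and 69.2 FPKM in WT YFP+, compared with 9.70 and 7 FPKM in SRC-3ff, yet with its 5 copies the sums were 314 and 355 FPKM against 341 and 289 FPKM, a log2 difference of 0.09. Ube2l3, a ubiquitin-conjugating enzyme, measured 87.6 and 55.2 FPKM in WT YFP+, against 13.9 and 14.7 FPKM in SRC-3ff, and its log2 difference of 2.21 became 0.62 with 7 matching genes added. These 3 gene-level differences are therefore uncertain. No such copy was found for Atp5e, Dcaf13, Acss2, H2-Q4 or Lgals3. The search used only the longest transcript of each gene, so it can miss copies and does not clear these genes.

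Over all genes, 3.73% were higher and 5.49% lower in WT YFP+. Ribosomal protein genes were higher at 19 of 81 (23.5%) and lower at none, with a median log2 difference of 0.40. Their processed copies named as pseudogenes were higher at 52 of 173 and lower at 1, and 10 of these 53 passed with each control library left out. Of the 19 higher ribosomal protein genes, Rps3a1, Rps7 and Rpl34 passed with each control library left out. Rps3a1 measured 345 and 424 FPKM in WT YFP+, compared with 162 and 140 FPKM in SRC-3ff. Processed pseudogenes as a class were called higher at 162 and lower at 34 of 1978 (9.91% called). Protein-coding genes were higher at 262 and lower at 567 of 10224 (8.11% called). Both shares were near the 9.22% called over all genes. With each control library left out, 21 higher and 12 lower processed pseudogenes and 54 higher and 156 lower protein-coding genes passed every time. The difference between these classes was not tested. Gas5, the non-coding host gene of small nucleolar RNAs, measured 38.9 and 44.7 FPKM in WT YFP+, against 8.56 and 7.26 FPKM in SRC-3ff, and it did not pass with any 1 of the 4 control libraries left out.

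Antigen receptor segments were called at 171 of 443 tested (38.6%, against 9.22% overall). T cell receptor alpha segments were higher at 33 and lower at 20 of 167, and 18 of these 53 calls passed with each control library left out. At 79.2% of the 53 both knockout groups were nearer to SRC-3ff. The share was 24.7% of all genes, 24.5% of all called higher and 12.2% of all called lower. Trav12-2 measured 22.3 and 24.1 FPKM in WT YFP+, compared with 0.661 and 0.287 FPKM in SRC-3ff, with 0.636 to 1.34 FPKM in the knockout libraries. Trav14-3 measured 16.9 and 20.8 FPKM in WT YFP+, against 1.40 and 1.36 FPKM in SRC-3ff. Trav4-2 went the other way, at 2.64 and 3.22 FPKM in WT YFP+ and 21.9 and 16.2 FPKM in SRC-3ff. The alpha total was 3219 and 3426 FPKM in WT YFP+ and 2833 and 2230 FPKM in SRC-3ff, a smaller gap than for these segments.

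A further alpha segment was low in both YFP+ groups. Trav11, the segment of the semi-invariant receptor of NKT cells, measured 3.44 and 3.88 FPKM in WT YFP+, compared with 25.8 and 40.5 FPKM in SRC-3ff. The knockout groups gave 2.18 and 4.76 FPKM in KO YFP+ and 72.8 and 149 FPKM in KO YFP-. The call of Trav11 did not hold with each control library left out. Gamma segments were lower in WT YFP+ at 11 of 14 and delta segments at 8 of 9, and 10 and 8 of these passed with each library left out. Trgc2 measured 0.729 and 1.13 FPKM in WT YFP+, against 68.2 and 136 FPKM in SRC-3ff. Beta segments were higher at 10 of 40 and lower at none, with Trbv14 at 40.9 and 62.8 FPKM in WT YFP+ and 16.8 and 14.4 FPKM in SRC-3ff. Trbv14 was the 1 beta segment that passed with each control library left out. Segments named here other than Trdc were chosen after their values were seen, and duplicated alpha segments share sequence, so their reads cannot be fully told apart.

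Of 76 nuclear genes of oxidative phosphorylation, 2 were higher (Atp5e and Cox7a2l) and 2 lower (Ndufa4 and Uqcrb), against 9.22% of all genes called, and their median log2 difference was 0.02. Cox7a2l, a respiratory supercomplex assembly factor, measured 73.7 and 97.7 FPKM in WT YFP+, compared with 38.7 and 34.8 FPKM in SRC-3ff. Of 18 glycolysis genes, Eno1 was higher (210 and 306 FPKM in WT YFP+, 121 and 114 FPKM in SRC-3ff), while Pfkp and Pgam1 were lower. Atp5e and Cox7a2l passed with each control library left out, and Ndufa4, Uqcrb, Eno1, Pfkp and Pgam1 did not pass without SRC-3ff 72. Of 32 cell cycle genes, Top2a and Rrm1 were lower, with Top2a at 3.45 and 5.26 FPKM in WT YFP+ and 10.4 and 13.1 FPKM in SRC-3ff, and neither passed with each control library left out.

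Early response, stress and signalling genes had calls in both directions, against 9.22% of all genes called. Of 30 immediate early genes, Jund and Dusp2 were higher and Fos, Ier3 and Klf4 lower (5 calls), with Fos at 112 and 96.4 FPKM in WT YFP+ and 179 and 203 FPKM in SRC-3ff. None of the 5 passed with each control library left out. Of 19 heat shock genes, the endoplasmic reticulum chaperones Hsp90b1 and Hspa5 were lower, with Hsp90b1 at 54.4 and 48.9 FPKM in WT YFP+ and 97.3 and 125 FPKM in SRC-3ff. Hspa1a had a log2 difference of 4.04 ± 1.04 and did not pass (adjusted p = 0.057). In the knockout groups it measured 4.59 and 28.6 FPKM in KO YFP+ and 5.06 and 39.2 FPKM in KO YFP-, with number 84 the lower of each pair. Of 29 T cell receptor signalling genes, the adaptor Sla2 was lower.

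Calls among other surface receptors differed from list to list, against 9.22% of all genes called. Of 13 checkpoint receptors Tigit and Cd160 were lower, of 12 costimulatory receptors Icos was lower, and of 7 SLAM family genes Slamf7 and Cd84 were lower in WT YFP+. Slamf7 measured 0.903 and 1.67 FPKM in WT YFP+, against 7.75 and 10.6 FPKM in SRC-3ff. Of 11 integrin genes, Itga6 was higher (61.1 and 49.7 FPKM in WT YFP+, 27.0 and 25.5 FPKM in SRC-3ff) and Itgae, Itgb1 and Itgb3 were lower. Of the 9 calls in these 4 lists, Itga6 and Itgae passed with each control library left out.

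**Figure D5:**
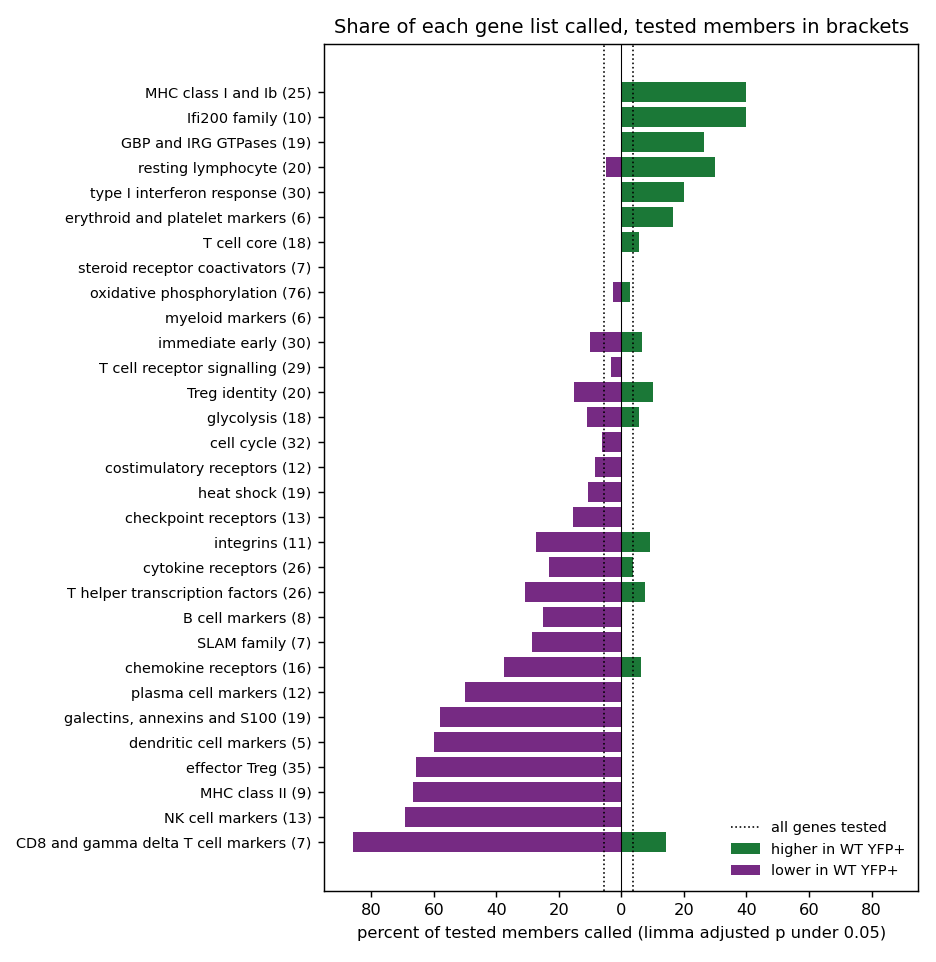
Percent of tested members of each gene list called higher (green, right) or lower (purple, left) in WT YFP+, compared with SRC-3ff, with the number tested in brackets. Dotted lines give the shares over all genes, 3.73% higher and 5.49% lower, and MHC class I and Ifi200 genes reach farthest to the right while CD8 and gamma delta, NK, MHC class II and effector Treg genes reach farthest to the left.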

How the data were processed

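The deposited table holds FPKM per gene for 8 libraries (SMART-Seq v4, per the labels' protocols), made by the authors with Trim Galore, STAR and StringTie on mm10 (GRCm38), per the submitters' processing notes. Tool versions, gene annotation and strandedness were not given in the sources used here. Reads of both strains were thus set against 1 C57BL/6 reference, and the effect of that was not tested. FPKM carry no counts, so the depth is unknown and intervals for counting error could not be given. All 8 libraries list 0 for the 13 protein genes of the mitochondrial genome, so a 0 can be a missing estimate. Of the gene IDs, 55227 matched GENCODE M21 and 260 did not.

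FPKM were used as deposited. The 4 groups of 2 libraries were fitted with limma 3.58.1 (R 4.3.3, eBayes with a trend) on log2(FPKM + 1), which understates changes of low genes and leaves 4 residual degrees of freedom. Errors are limma's standard errors, and p-values were adjusted over all 14134 genes within a contrast (Benjamini-Hochberg, threshold 0.05). The contrasts taken were WT YFP+ minus SRC-3ff, KO YFP+ minus KO YFP-, and the difference of these. For 2 libraries against 2, the smallest two-sided p of an exact permutation test is 0.333. The labels do not say that every library is a separate animal, so p-values measure the spread between libraries, which may be technical. The comparison, the 32 gene lists and the rule for named genes were chosen with earlier results of these data known. Some lists share members, so their counts are not independent. The rule named Ncoa3, Foxp3, Atp5e, Ifi206, Lgals3 and sex-linked genes, the 15 largest differences in each direction (called, no overlap, a group mean of at least 5 FPKM, no predicted genes, pseudogenes or segments) and the 4 members of each list with the smallest p. Other list members are named where a count is spelled out, after their values were seen.

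The fit was first tested on simulated data. Copies were transcripts aligned by blastn 2.17.0 at 95% identity or more over at least 100 bases and 50% of the shorter transcript. The longest annotated transcript of each gene was the one searched with. Promoter windows are from RefSeq (GRCm38.p6), matched by symbol. Alternatives were a pseudocount of 0.1, no filter, a minimum of 5 FPKM, 3 other scalings, a replicate block and the 4 compared libraries alone. Each library of the groups in a contrast was also left out in turn. Python 3.11.15, pandas 2.3.3 and matplotlib 3.10.9 made tables and plots. Results for 2 of the list members are not reported here.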

Additional observations from a re-analysis of the deposited data

Results flagged for a closer look

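The difference between WT YFP+ minus SRC-3ff and KO YFP+ minus KO YFP- passed at 68 genes in limma (adjusted p under 0.05), 44 with a positive and 24 with a negative difference. Of the genes named by rule, 14 were among them. On the log2 scale the difference was 4.0 for Ifi206, 3.06 for Rpl34, 2.44 for Hivep3, 2.40 for Dcaf13, 2.38 for H2-Q4 and 2.33 for Atp5e. It was 2.21 for Ube2l3, 2.20 for H2-Q2, 2.06 for Ifi208, 2.04 for Ifi213, 1.60 for Acss2, 1.26 for H2-Q1 and -1.92 for Fcer1g. Ncoa3 had a difference of 1.61, from a log2 difference of 0.08 between the controls and -1.52 in the knockout sort, where Ncoa3 was low in KO YFP+. Rpl34 and Ube2l3 have near-identical copies, between which reads may be split. Fcer1g was low in both YFP+ groups, and the gap was larger between the controls, with SRC-3ff at 20 and 21.3 FPKM and KO YFP- at 5.25 and 4.60 FPKM. In the other 12 genes the knockout sort did not pass. Both knockout groups lay nearer to WT YFP+ for Hivep3 and Rpl34, and nearer to SRC-3ff for the other 10.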

How the results depend on the processing

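The count of 1303 genes between WT YFP+ and SRC-3ff ranged from 1126 to 1381 with a pseudocount of 0.1, a minimum of 5 FPKM, the 3 other scalings or the replicate block. It was 717 with no filter on low values, 667 with the 4 compared libraries alone, and 400 to 1076 with 1 library left out. The 693 genes of the knockout sort became 226 with no filter and 140 to 345 with 1 library left out. The 68 genes of the difference became 38 with a minimum of 5 FPKM, 36 with a pseudocount of 0.1 and 5 to 51 with 1 library left out. These settings changed the libraries, the genes or the values entering the fit, and the cause of the shifts was not tested. Only libraries of the groups compared were left out, so the control comparison was not refitted without a knockout library. Of 99 named genes called between the controls, 66 stayed called with no filter and 71 with the 4 compared libraries alone. None of the 99 changed sign in any alternative that was run. Of the named genes that were not called, 2 changed sign: the log2 difference of Ncoa3 ranged from -0.16 (without SRC-3ff 72) to 0.32, and that of Ncoa4 from -0.50 to 0.01 (without WT YFP+ 23). Jchain, at -3.62, was among 37 named genes that did not pass without SRC-3ff 72. No paired analysis was possible between WT YFP+ and SRC-3ff because they share no replicate number. Numbers 84 and 85 are shared by the knockout groups. The deviations of same-numbered libraries from their group means correlated at 0.137 across genes, which does not settle a pairing with 2 pairs. The replicate block gave 1235 genes between the controls, 557 in the knockout sort and 48 in the difference. Library depth is not known from FPKM, and values near 0 FPKM are least certain.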
